A study of Mus musculus with 6 samples.

Results

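The interferon regulatory factor (IRF) genes described here are Irf1, Irf2, Irf3, Irf4, Irf5, Irf7, Irf8 and Irf9, found by their symbols as 8 of the 25955 entries of an all-genes table. Bulk RNA sequencing was done on 6 libraries of cells sorted from digested bone marrow of C57BL/6 mice, 3 labelled CD44+CD51- and 3 labelled CD51+, with replicates 1 to 3 in each. The sorted cells are called TNCs in the labels, which do not spell the term out, and the series title speaks of stromal and hematopoietic TNCs. Itgav encodes CD51, the alpha V chain of integrins, and CD44 is a cell-surface protein that binds hyaluronan. No treatment or genetic change was named for either group, and the labels are silent on age, sex and any pooling of animals. RNA was isolated with an RNeasy Plus Micro kit, made into libraries with Nextera XT, and read on an Illumina sequencer. The Nextera XT kit does not mark the strand of the RNA.

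IRF proteins are transcription factors that share a DNA-binding domain and recognise repeats of the bases GAAA, as in the interferon-stimulated response element (ISRE). In the interferon pathway, IRF3 and IRF7 are switched on by kinases downstream of sensors of nucleic acids and then turn on interferon genes, IRF5 acts downstream of Toll-like receptors, and IRF9 joins STAT proteins in the complex that answers type I interferon. IRF1 is induced by interferon gamma through a gamma-activated sequence (GAS), and IRF2 competes with IRF1 for the same sites. IRF4 and IRF8 are the members with roles in blood cell development: they bind composite elements with the ETS factor PU.1 (gene Spi1), IRF8 in the formation of monocytes and dendritic cells in the marrow and IRF4 in B lymphocytes, plasma cells and some dendritic cells.

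To show what sequence lies before the members whose promoters held one of these elements, the 250 bases before the annotated start of Irf1, Irf8 and Irf2 are given from RefSeq on build GRCm38.p6, 5′ to 3′ on the plus strand, with the matches in capitals. The windows are chr11:53769764-53770013 for Irf1, chr8:120736108-120736357 for Irf8 and chr8:46739495-46739744 for Irf2.
Irf1 promoter: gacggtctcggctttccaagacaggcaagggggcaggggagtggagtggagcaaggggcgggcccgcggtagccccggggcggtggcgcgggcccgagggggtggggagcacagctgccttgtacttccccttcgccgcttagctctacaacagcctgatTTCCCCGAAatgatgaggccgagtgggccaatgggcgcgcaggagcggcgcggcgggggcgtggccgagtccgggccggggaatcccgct
Irf8 promoter: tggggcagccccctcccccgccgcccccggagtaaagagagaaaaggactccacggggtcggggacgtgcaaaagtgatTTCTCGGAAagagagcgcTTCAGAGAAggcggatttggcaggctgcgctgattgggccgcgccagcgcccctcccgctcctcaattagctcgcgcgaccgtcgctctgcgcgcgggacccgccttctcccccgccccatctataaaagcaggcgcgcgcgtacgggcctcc
Irf2 promoter: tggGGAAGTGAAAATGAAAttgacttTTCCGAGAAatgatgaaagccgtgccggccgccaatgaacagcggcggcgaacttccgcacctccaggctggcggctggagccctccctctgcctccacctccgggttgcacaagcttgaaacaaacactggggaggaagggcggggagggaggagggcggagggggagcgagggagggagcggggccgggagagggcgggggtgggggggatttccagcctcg
The capitals in the Irf1 window are a GAS match (letters TTCNNNGAA), TTCCCCGAA, at bases -90 to -82 from the start. The Irf8 window holds a pair of GAS matches, TTCTCGGAA at -171 to -163 and TTCAGAGAA at -153 to -145. In the Irf2 window the first run of capitals joins an ETS and IRF composite match (GGAANNGAAA), GGAAGTGAAA at -247 to -238, and an ISRE match (GAAANNGAAA), GAAAATGAAA at -241 to -232, which overlap, and the second run is a GAS match, TTCCGAGAA, at -224 to -216. All 8 genes had a RefSeq promoter, with 11 windows in all because some genes have more than 1 start, and both strands were searched. A GAS match was in 3 of the 11 windows, against 7.02% of 32851 windows of 27025 genes, and the ISRE and composite matches were each in 1, against 2.98% and 2.30%. None of the 3 motifs was found in the windows of Irf3, Irf4, Irf5, Irf7 and Irf9. A match describes letters in a window and is not evidence of binding.

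Levels are RPKM, a read number divided by the length of the gene and by the size of the library, so that genes can be set beside each other. All 8 members had an RPKM of at least 1 in at least 3 of the 6 libraries and were tested among 11741 genes with limma on log2(RPKM + 1), with adjustment over all of them. Irf1, Irf8 and Irf5 were higher in CD51+ and Irf3 was lower, while Irf2, Irf4, Irf7 and Irf9 did not pass the test at an adjusted p of 0.05. Of all genes tested, 24.1% passed as higher in CD51+ and 29.7% as lower, and 3 of 8 higher with 1 of 8 lower does not set the members apart from that background. The member changes had a median of 0.37 on the log2 scale, and the changes of all genes tested had a median of -0.23. The values of the 3 libraries of a group did not overlap those of the other group for the same 4 members, against 26.1% of all genes tested without overlap and higher and 37.5% without overlap and lower. The labels do not say whether replicates came from separate mice, so p-values measure only the spread between these samples.

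**Figure D1:**
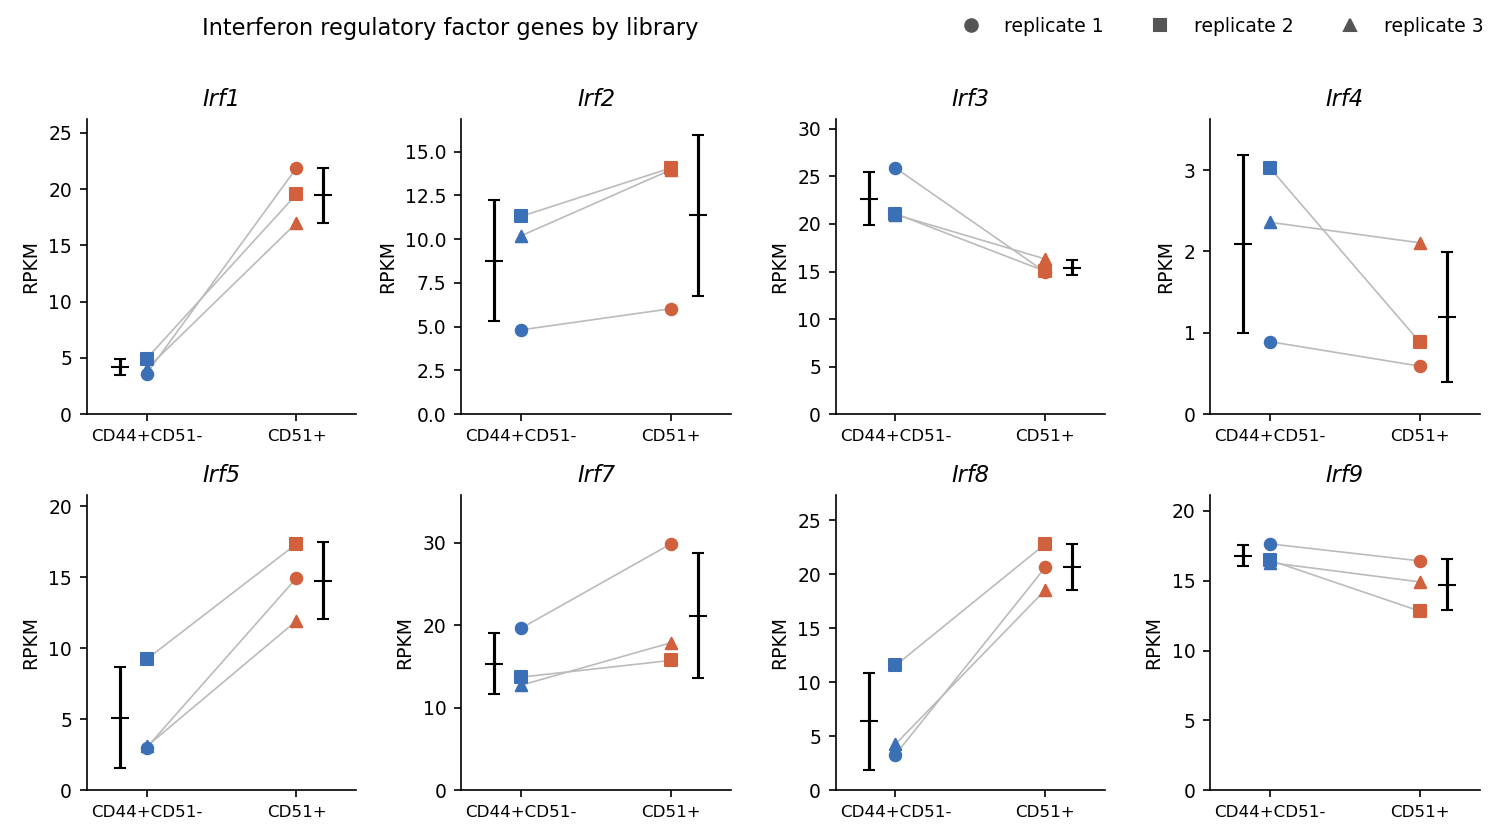
RPKM of each member in every library, by group, with a circle, square or triangle for replicates 1 to 3, grey lines joining the same replicate number and black bars for the mean and SD of 3 libraries. The groups are apart for Irf1, Irf5 and Irf8 (higher in CD51+) and Irf3 (lower), and overlap for Irf2, Irf4, Irf7 and Irf9.

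Among the members with activating roles, Irf1, the interferon gamma-induced activator, changed most. Its RPKM was 3.60, 4.94 and 4.03 in CD44+CD51- replicates 1 to 3 and 21.9, 19.5 and 17.0 in CD51+ replicates 1 to 3. Every CD51+ library was far above every CD44+CD51- library, and the spread within each group was small beside the gap. The means were 4.19 ± 0.684 and 19.5 ± 2.44 (SD, n = 3 each), a ratio of 4.64, and the log2 change was 1.98 ± 0.17 (SE; limma adjusted p = 0.00013). Irf1 was the only member whose change was beyond 2-fold by limma's treat test (adjusted p = 0.00476), a test that 9.74% of all genes passed as higher and 0.213% as lower. It stayed past the main test in all 15 alternative settings, with log2 changes from 1.41 to 2.19. Irf1 lies at chr11:53770014-53778374 on the plus strand (GENCODE M21, GRCm38), and Gm17334, which lies within it on the other strand, was at 0.129 RPKM or less in every library.

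Irf8, the factor of monocyte and dendritic cell formation, had RPKM 3.30, 11.5 and 4.26 in CD44+CD51- and 20.6, 22.8 and 18.5 in CD51+. CD44+CD51- replicate 2 stood above the other libraries of its group, and still below the lowest CD51+ library. Its log2 change of 1.72 ± 0.38 (SE; limma adjusted p = 0.00873) passed in all 15 alternatives. Irf8 lies at chr8:120736358-120756694 on the plus strand, and a longer annotated read-through gene, Gm20388, that spans it was not analysed here.

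Irf5, which acts downstream of Toll-like receptors, had RPKM 3.00, 9.23 and 3.08 in CD44+CD51- and 15.0, 17.4 and 11.9 in CD51+. As for Irf8, replicate 2 was the high library of CD44+CD51-, and the groups did not overlap. The log2 change was 1.50 ± 0.38 (SE; limma adjusted p = 0.0138); without CD51+ replicate 2 it was 1.38 and no longer passed (adjusted p = 0.0584). Irf5 (chr6:29526625-29541871, plus strand) shares 1045 bases at its 3′ end with Tnpo3 on the other strand, an importin gene that was lower in CD51+ (log2 change -0.78, limma adjusted p = 0.00244). Reads in that overlap cannot be told apart where strand was not kept.

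Irf3, which is present before infection and is activated by phosphorylation, was the member that was lower. Its RPKM was 25.9, 21.1 and 21.0 in CD44+CD51- and 14.9, 15.0 and 16.3 in CD51+, and the groups did not overlap. The log2 change was -0.52 ± 0.14 (SE; limma adjusted p = 0.0182), but it did not pass after median ratio scaling (-0.34, adjusted p = 0.105) or without CD51+ replicate 2 (-0.50, adjusted p = 0.0721). The median over all genes was itself -0.23, and median ratio scaling moved it by 0.16, and relative to the median gene Irf3 was lower by less than its own log2 change says. Irf3 (chr7:44997648-45002848, plus strand) overlaps 1065 bases of the oppositely oriented Bcl2l12, a gene of the BCL2 family. Bcl2l12 had RPKM 19.3, 14.4 and 14.1 against 9.96, 9.56 and 10.6, a log2 change of -0.60 (limma adjusted p = 0.0177), which likewise missed the test after median ratio scaling (adjusted p = 0.087). The reads of this overlap could have been counted for either gene.

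Irf7, the interferon-inducible partner of Irf3 in turning on interferon genes, had RPKM 19.6, 13.7 and 12.7 in CD44+CD51- and 29.9, 15.7 and 17.9 in CD51+. Replicate 1 was the highest library in both groups, the groups overlapped, and each CD51+ library was above the CD44+CD51- library of the same number. The log2 change was 0.41 ± 0.27 (SE; limma adjusted p = 0.241), and with the replicate number as a block it passed (adjusted p = 0.0236). Irf7 (chr7:141262706-141266481, minus strand) overlaps Phrf1 by 45 bases, a neighbour that was lower in CD51+ (log2 change -0.83, limma adjusted p = 0.00294).

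Irf9, whose product binds DNA in the complex that answers type I interferon, was the steadiest member. Its RPKM was 17.6, 16.5 and 16.3 in CD44+CD51- and 16.4, 12.8 and 14.9 in CD51+, so that the groups overlapped narrowly. Its log2 change of -0.19 ± 0.14 (SE; limma adjusted p = 0.299) was close to the median of all genes and passed only with sample weights (-0.27, adjusted p = 0.0447). Irf9 (chr14:55603571-55610030, plus strand) overlaps 123 bases of the same-strand gene Rnf31, whose log2 change was -0.52 (limma adjusted p = 0.0513).

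Irf2, which competes with Irf1, had RPKM 4.82, 11.3 and 10.2 in CD44+CD51- and 6.03, 14.1 and 14.0 in CD51+. Replicate 1 was the low library in both groups, the opposite of Irf7, and the spread between replicate numbers was larger than the gap between groups. Irf2 had a log2 change of 0.33 ± 0.40 (SE; limma adjusted p = 0.507). With the replicate number as a block it passed (adjusted p = 0.0434), and without CD44+CD51- replicate 1 it was -0.0093. Irf2 lies at chr8:46739732-46847458 on the plus strand.

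Irf4, the B lymphocyte and plasma cell factor, was the member with the lowest RPKM in both groups. It was at 0.892, 3.03 and 2.36 in CD44+CD51- and 0.591, 0.887 and 2.11 in CD51+, lower in CD51+ within every replicate number, with groups that overlapped. The log2 change was -0.49 ± 0.35 (SE; limma adjusted p = 0.277), but quantile normalization gave -1.06 (adjusted p = 0.0241) and sample weights gave -0.69 (adjusted p = 0.0318). Irf4 passed the level filter through 3 libraries and dropped below it in 3 of the 6 fits that left out a library. It lies at chr13:30749226-30766976 on the plus strand.

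**Figure D2:**
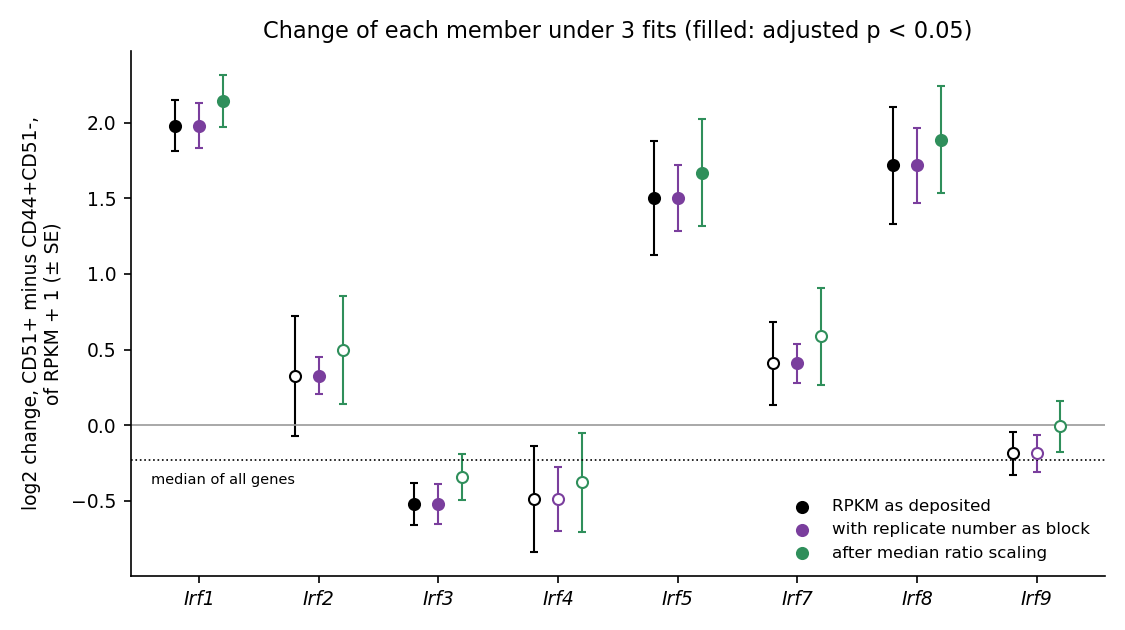
Log2 change of RPKM + 1 (CD51+ minus CD44+CD51-, with SE) of each member in 3 fits, with filled points past an adjusted p of 0.05 and a dotted line at the median of all genes. Irf1, Irf5 and Irf8 are filled in all 3, Irf3 is filled except after median ratio scaling, and Irf2 and Irf7 are filled only with the replicate number as a block.

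With the replicate number as a block, 5 members were higher and 1 lower, where 27.8% of all genes passed as higher and 41.3% as lower. The added calls were Irf2 and Irf7. Median ratio scaling gave 3 higher and 0 lower members, against 27.4% and 21.5% of all genes. Quantile normalization gave 3 higher and 2 lower members, Irf3 and Irf4, against 20.6% and 38.9% of all genes. Sample weights gave 3 higher and 3 lower, Irf3, Irf4 and Irf9, against 29.4% and 38.7%. In each of these fits Irf1, Irf5 and Irf8 passed as higher.

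Set beside each other per length, the members changed places. In CD44+CD51- the order from the top was Irf3, Irf9, Irf7, Irf2, Irf8, Irf5, Irf1 and Irf4, with mean RPKM from 22.7 down to 2.09. Irf9 and Irf7 overlapped each other, as did each neighbouring pair from Irf2 to Irf1. In CD51+ the order was Irf7, Irf8, Irf1, Irf3, Irf5, Irf9, Irf2 and Irf4, with mean RPKM from 21.2 down to 1.19, and the first 3 overlapped one another in sequence, as did the run from Irf3 to Irf2. Irf4 was last in both groups, and its values lay below all those of the member above it.

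The summed RPKM of the 8 members was 78.8, 91.3 and 73.9 in CD44+CD51- and 125, 118 and 113 in CD51+. All CD51+ sums were above all CD44+CD51- sums (exact permutation test, two-sided p = 0.1, the smallest that 3 against 3 can give). The summed RPKM of the whole table was likewise higher in CD51+. It was 486566, 516205 and 453600 in CD44+CD51- and 589810, 609915 and 615189 in CD51+, so a higher sum is not particular to the members. A share of the members' sum does not depend on how a library was scaled. The share of Irf1 was 5.15% ± 0.496 in CD44+CD51- and 16.4% ± 1.19 in CD51+ (SD, n = 3 each; exact p = 0.1). Irf8 held 7.53% ± 4.50 and 17.4% ± 1.63, and Irf5 held 6.03% ± 3.54 and 12.4% ± 2.08. In the other direction, the share of Irf3 was 28.1% ± 4.89 in CD44+CD51- and 13.0% ± 1.31 in CD51+, and that of Irf9 was 20.8% ± 2.42 and 12.4% ± 1.35. The groups did not overlap for these 5 shares, each with an exact p of 0.1. The shares of Irf2 (10.8% and 9.70%), Irf7 (19.0% and 17.7%) and Irf4 (2.55% and 1.03%) overlapped between groups, with exact p of 0.6, 0.6 and 0.2. Within replicate numbers each of these 3 shares was lower in CD51+ in all 3 pairs (exact sign-flip permutation p = 0.25, the smallest that 3 pairs can give). The shares of a library add up to a fixed whole, so a lower share is not by itself a lower level. The RPKM of Irf2 and Irf7 was higher in CD51+ in all 3 pairs, and that of Irf9 did not pass the limma test (adjusted p = 0.299).

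**Figure D3:**
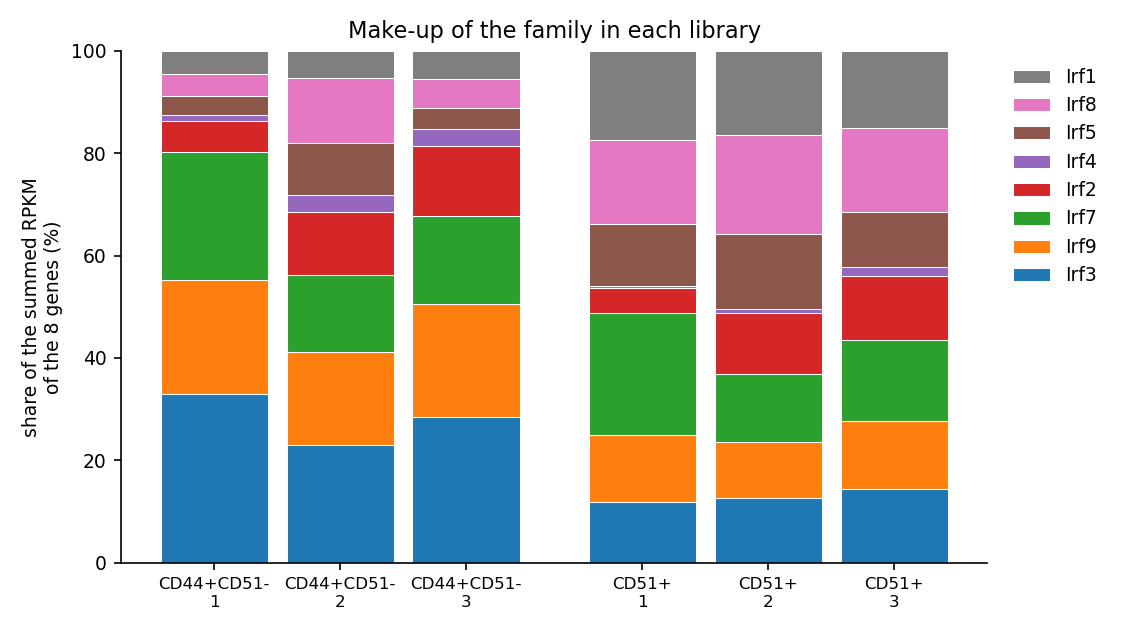
Share of the summed RPKM of the 8 members (percent) held by each member in every library, as stacked bars that add up to 100%. Irf3 and Irf9 each fill more of every CD44+CD51- bar than of any CD51+ bar, and Irf1, Irf8 and Irf5 take more of every CD51+ bar than of any CD44+CD51- bar.

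Ratios within a library set members with opposed or paired roles against each other, as differences of log2(RPKM + 1). The activator Irf1 against its competitor Irf2 was at -0.34, -1.05 and -1.15 in CD44+CD51- and 1.70, 0.45 and 0.27 in CD51+. Irf2 was thus the higher of the pair in every CD44+CD51- library and Irf1 in every CD51+ library. Irf8 against its closest relative Irf4 was at 1.18, 1.64 and 0.65, and then 3.77, 3.66 and 2.65. Irf7 against Irf3 was at -0.38, -0.59 and -0.68, and then 0.95, 0.06 and 0.12, so that Irf3 was the higher in CD44+CD51- and Irf7 in CD51+. For these 3 ratios the groups did not overlap (exact permutation test, two-sided p = 0.1 each). Which member of a pair is higher, here and in the order above, rests on the gene lengths behind RPKM, which are not given. The lead of Irf7 over Irf3 was only 0.06 and 0.12 in CD51+ replicates 2 and 3. Irf8 against its partner Spi1 averaged -1.55 ± 0.57 and -2.04 ± 0.59 (SD, n = 3 each), with overlapping groups (exact p = 0.4), and was lower in CD51+ in all 3 pairs (exact p = 0.25). Spi1 had RPKM 18.6, 31.1 and 10.3 in CD44+CD51- and 137, 66.7 and 74.1 in CD51+.

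Over the 6 libraries, likeness of pattern was measured as the root mean square difference between log2(RPKM + 1) profiles, each centred on its mean. Between members it was smallest for Irf5 and Irf8, at 0.147, both of them high in CD44+CD51- replicate 2, and next for Irf3 and Irf9, at 0.206. Among all genes tested, Irf8 was the second most like Irf5, after Tifab (0.101), and Sgk1 followed (0.158). The genes most like Irf8 included Cd53 (0.113), a tetraspanin of leukocytes, and Tmem173 (0.121), the gene of the DNA-pathway adaptor STING. Cd53 had RPKM 30.2, 86.0 and 33.9 in CD44+CD51- and 161, 149.8 and 156 in CD51+, high in the same CD44+CD51- library as Irf8. Those most like Irf1 were Rftn2, Adap2 and Eml1, all at 0.566 RPKM or less in CD44+CD51- and at 2.45 or more in CD51+. They passed the level filter through CD51+ alone, so that they had to differ. The pseudocount of 1 shrinks the change of such low genes, so their likeness to Irf1 is not a like fold change. The genes most like Irf2 included Tmx3 and Pdlim5, each low in replicate 1 of both groups, and those most like Irf7 were Atp6v0b, Rnf19b and AI467606, each high in replicate 1 of both groups. Flcn, Rev1 and Nus1 were closest to Irf3, AK010878, Hist1h3g and Fbxl12 to Irf4, and Trim39, Tigd2 and Phlpp1 to Irf9.

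**Figure D4:**
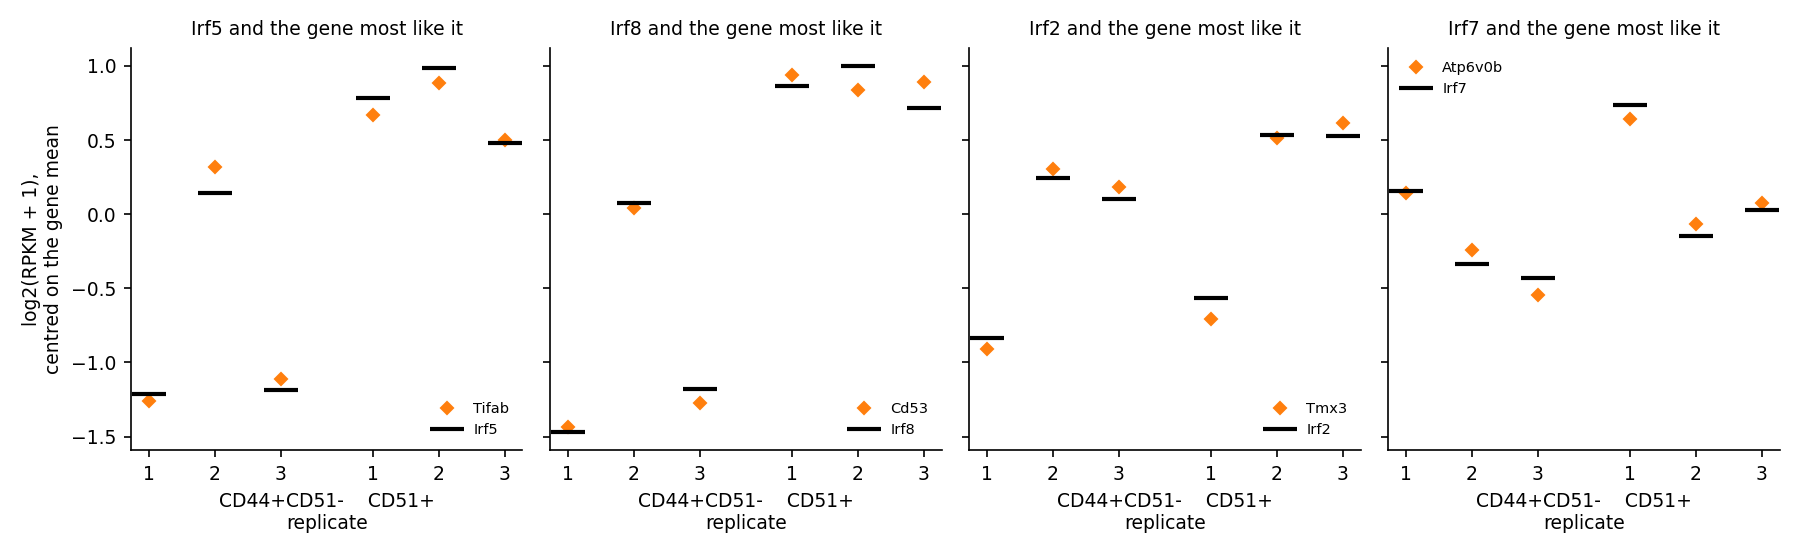
Log2(RPKM + 1) of Irf5, Irf8, Irf2 and Irf7 (black bars) and of the gene most like each (Tifab, Cd53, Tmx3 and Atp6v0b, coloured diamonds), centred on each gene's mean, in every library. Irf5 and Irf8 are high in CD51+ and raised in CD44+CD51- replicate 2, while Irf2 is low and Irf7 high in replicate 1 of both groups.

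Upstream of the family, the list of nucleic acid sensors, adaptors and IRF kinases had 29 tested genes, of which 12 were higher in CD51+, 3 lower and 14 not past the test, with a median log2 change of 0.20. Of the 29, 5 (Tlr3, Tlr7, Tlr8, Ticam2 and Tbkbp1) passed the level filter through CD51+ alone, so that they had to differ, and all 5 are among the 12. Of the other 24, 7 were higher and 3 lower, where 24.1% of all genes tested were higher and 29.7% lower. The largest changes were in Tlr4 (1.85), the receptor for lipopolysaccharide, Tmem173 (1.78), Unc93b1 (1.69), which carries Toll-like receptors to endosomes, Tlr3 (1.50), a receptor for double-stranded RNA, and Tbkbp1 (1.34), which binds the kinase TBK1. Tlr3 had RPKM 0, 0.0356 and 0 in CD44+CD51- and 1.60, 2.08 and 1.92 in CD51+. The lower genes were Traf6 (-0.72), Mavs (-0.67), the adaptor of RNA sensing, and Trim25 (-0.62). Tank, a scaffold of the same kinases, was nearest to no change (-0.01, limma adjusted p = 0.977). Leaving out any 1 of the CD51+ libraries brought the 12 down to 6, with those 5 no longer tested, and leaving out CD44+CD51- replicate 3 or CD51+ replicate 3 brought the 3 lower genes down to 1. The replicate block gave 13 higher and 5 lower of the 29, against 27.8% and 41.3% of all genes. Of the interferon genes themselves, Ifna4 and Ifnl3 were listed at 0 in all 6 libraries and the other 19 of the list were not analysed here.

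Of the interferon receptors, JAK and STAT genes and feedback genes, 6 of 19 tested were higher in CD51+ and 2 lower, with a median of 0.29, where 24.1% of all genes were higher and 29.7% lower, so the share of higher genes was near that background. The feedback inhibitors Socs3 (4.15) and Socs1 (2.14) changed most, and then Stat3 (1.67), Il10rb (1.09), a chain of the lambda interferon receptor, and Ifnar2 (0.99), a chain of the type I interferon receptor. Socs3 passed the level filter through CD51+ alone, with RPKM 0.575, 0.568 and 0.358 in CD44+CD51- and 63.3, 21.5 and 12.1 in CD51+. Stat2, a partner of Irf9, did not pass (0.29, limma adjusted p = 0.21). Ifnar1 (0.58, adjusted p = 0.0672) and Ifngr2 (2.00, adjusted p = 0.0586) missed the limma test and passed it with the replicate block (adjusted p = 0.00427 and 5.49e-05), while Ifngr1 was at -0.02. The kinases Tyk2 (-0.62) and Jak2 (-0.44) were lower in CD51+, and after median ratio scaling no gene of this list was lower. The count of higher genes was 3 without CD51+ replicate 2, that of lower genes was 1 whichever library was left out, and the block gave 9 higher and 4 lower, against 27.8% and 41.3% of all genes.

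Among the partners and co-repressors of IRF proteins, 7 of 20 tested genes were higher and 2 lower, with a median of 0.36, against 24.1% and 29.7% of all genes. Irf2bpl and Bcl6 passed the filter through CD51+ alone, and of the other 18 genes 5 were higher, a share near that background. Irf2bpl, a relative of the IRF2-binding co-repressors, rose most (2.81), followed by Spi1 (2.21), Cbfb (1.50), which pairs with RUNX factors, and Bcl6 (1.44), a repressor of germinal centre B cells. Spi1 is the gene of PU.1, the partner with which IRF8 and IRF4 bind DNA, and it rose with a limma adjusted p of 0.00467. Tcf3 (-1.46), which encodes E2A, and Ikzf1 (-0.87), which encodes Ikaros, were the lower genes, both of them factors of lymphocyte development. Irf2bp2 was at 0.06 and Irf2bp1 at -0.69 (limma adjusted p = 0.0808, and 0.00136 with the replicate block), and Crebbp, a co-activator, was nearest to no change (-0.04). Leaving out CD51+ replicate 1, 2 or 3 gave 4, 3 or 4 higher genes, leaving out CD44+CD51- replicate 2 or 3 or CD51+ replicate 2 gave 1 lower gene, and the block gave 10 higher and 4 lower, against 27.8% and 41.3% of all genes.

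Downstream, the list of interferon-stimulated genes with ISRE-type control had 44 tested members, of which 15 were higher in CD51+, 6 lower and 23 not past the test, with a median of 0.29, where 24.1% of all genes were higher and 29.7% lower. Ifit3 and Ifit3b passed the filter through CD51+ alone, and of the other 42 genes 13 were higher. Ifit3 (2.87), Ifitm3 (2.50), Ifit1 (1.65), Rtp4 (1.54) and Ifit3b (1.51) rose most, and Ifit3 and Ifit3b are near copies whose reads the counting may have split. Ifit3 had RPKM 0.392, 0.448 and 0.0889 in CD44+CD51- and 10.5, 8.25 and 7.01 in CD51+. Lgals9 (-1.46), Oasl1 (-1.39) and Isg20 (-0.75) fell, and Oas1a was nearest to no change (-0.04), so the list did not move one way. The count of higher genes was 9 without CD44+CD51- replicate 3, 7 without CD51+ replicate 2 and 8 without CD51+ replicate 3, and that of lower genes was 3 without CD44+CD51- replicate 3.

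Of the genes that answer interferon gamma, where Irf1 acts, 12 of 24 tested were higher in CD51+ and 2 lower, with a median of 0.42, against 24.1% and 29.7% of all genes. Cxcl9 and Cxcl10 passed the filter through CD51+ alone, and of the other 22 genes 10 were higher. Iigp1 (3.48), a GTPase of cell-autonomous defence, the chemokines Cxcl9 (3.18) and Cxcl10 (2.58), the adhesion molecule Icam1 (2.47) and Socs1 (2.14) rose most. Cxcl9 had RPKM 0, 0 and 0.103 in CD44+CD51- and 11.4, 10.2 and 4.97 in CD51+. Gbp7 (-0.79) and Psme1 (-0.43) fell, Tap2 was nearest to no change (-0.01), and Ido1 was listed at 0 throughout CD44+CD51- and stayed at 0.202 RPKM or less in CD51+. Without CD51+ replicate 2 the count of higher genes was 7, and that of lower genes was 1 whichever library but CD51+ replicate 1 was left out.

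**Figure D5:**
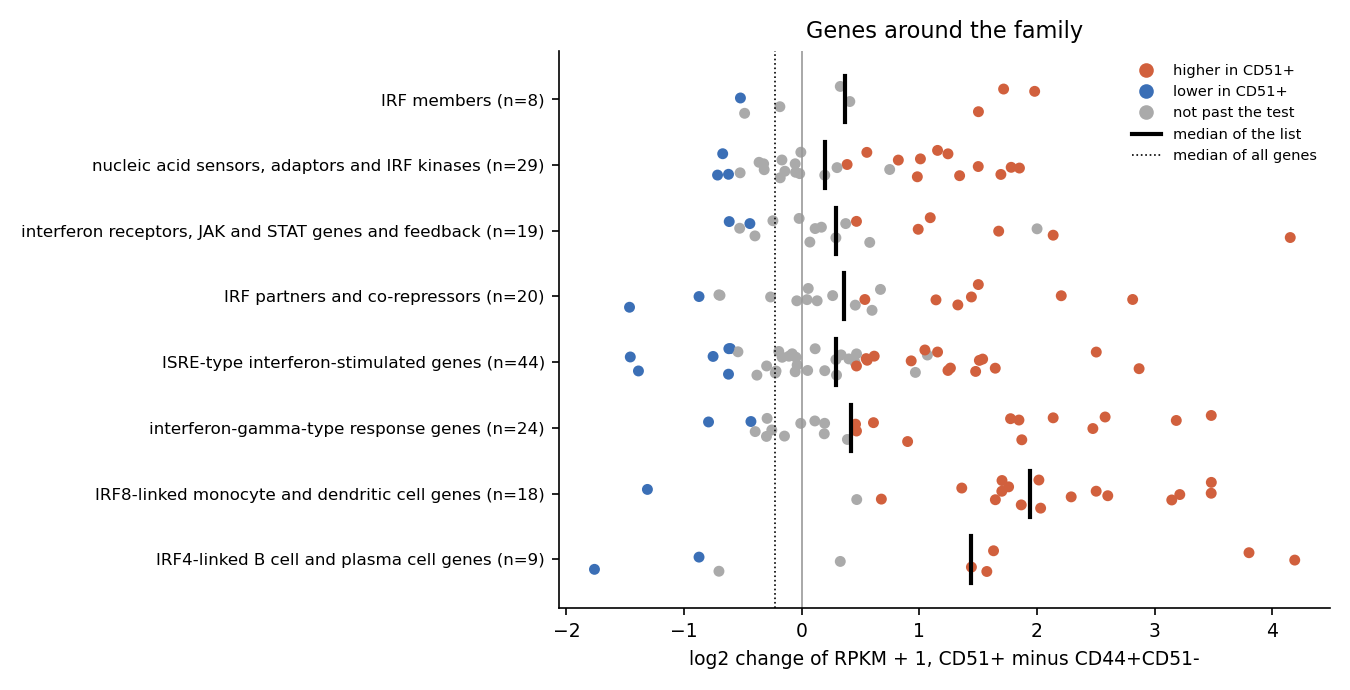
Log2 change (CD51+ minus CD44+CD51-) of each tested gene of the members and of 7 gene lists around them, coloured by call, with black bars at list medians and a dotted line at the median of all genes. The list medians lie at 0.20 to 0.42 for sensors, receptors, partners and interferon-stimulated genes, at 1.94 for IRF8-linked genes and at 1.44 for IRF4-linked genes.

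The IRF8-linked genes of monocytes and dendritic cells moved mostly one way: 16 of 18 tested were higher in CD51+ and 1 was lower, with a median of 1.94, against 24.1% and 29.7% of all genes, and 1 of the 16, Klf4, was tested through CD51+ alone. Cst3 (3.48), Cebpa (3.48), a factor of myeloid cells, Cd68 (3.21), Id2 (3.15) and Cybb (2.60), a subunit of the phagocyte oxidase, changed most. Zbtb46, a gene of conventional dendritic cells, was the lower one (-1.31), Bcl2l1 was nearest to no change (0.47) and did not pass, and Il12b was at 0 in all 6 libraries. Of the IRF4-linked genes of B and plasma cells, 5 of 9 tested were higher, Bcl6 through CD51+ alone, and 2 lower, with a median of 1.44. The higher genes included Jchain (4.19), Sdc1 (3.80), Il4ra (1.63) and Xbp1 (1.57), and the lower were Mzb1 (-1.76) and Ikzf1. Jchain had RPKM 18.5, 0.0621 and 0.0205 in CD44+CD51- and 29.9, 120 and 33.5 in CD51+, so a single CD44+CD51- library carried nearly all of that group's signal. The count of higher IRF4-linked genes was 3 without CD44+CD51- replicate 3, CD51+ replicate 2 or CD51+ replicate 3. That of lower ones was 0 when CD51+ replicate 2 or CD44+CD51- replicate 3 was left out, and 1 when CD51+ replicate 1 or CD44+CD51- replicate 2 was. Bcl6 and Ikzf1 are in both the partner and the IRF4-linked lists, and Socs1 is in both the feedback and the interferon gamma lists. Traf6, Mavs, Trim25, Tyk2, Jak2, Ikzf1, Lgals9, Oasl1, Isg20, Gbp7, Psme1, Zbtb46, Tlr7, Tlr8, Ticam2 and Klf4 were named after their values had been seen.

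Markers of several cell types differed between the groups along with the members, and in bulk RNA fewer cells of a type and less RNA per cell cannot be told apart. Of all genes tested, 24.1% were higher in CD51+ and 29.7% lower. All 18 monocyte and macrophage markers were higher in CD51+, 2 of them tested through CD51+ alone, with a summed RPKM of 613 to 1826 in CD44+CD51- and 5225 to 8206 in CD51+. The 14 neutrophil lineage markers were all higher as well (6036 to 29182 and 86573 to 89855), as were the 12 of marrow stroma and bone (24.2 to 129 and 25655 to 34527), of which 6 passed the filter through CD51+ alone and the other 6 were higher as well. After quantile normalization 10 of the neutrophil and 17 of the monocyte and macrophage markers were higher. The neutrophil count was 12 without CD44+CD51- replicate 3 and 13 without CD51+ replicate 3. Of the plasmacytoid dendritic markers, 9 of 12 tested were higher (88.8 to 146 and 161 to 193), or 5 of 8 without the 4 that passed the filter through CD51+ alone. That count of 9 was 3 without CD44+CD51- replicate 3, 3, 2 and 1 without CD51+ replicates 1, 2 and 3, when only 8 were tested, and 4 after quantile normalization. Of the conventional dendritic ones 2 of 5 were higher and 1 lower (45.3 to 144 and 188 to 310), with 4 higher without CD44+CD51- replicate 2 and 0 without CD51+ replicate 3. The counts with all libraries do not set the conventional dendritic list apart from all genes tested. B lineage markers were lower, 10 of 11 (325 to 1003 and 87.3 to 174), and of the plasma cell markers 3 of 4 were higher and 1 lower (90.1 to 153 and 224 to 339; 0 lower without CD44+CD51- replicate 3, CD51+ replicate 1 or CD51+ replicate 2), with Tnfrsf17 listed at 0 throughout CD44+CD51-. None of the other markers in these 7 lists was at 0 in every library of a group. The B lineage count of 10 was 9 without CD44+CD51- replicate 3 or CD51+ replicate 3. It was 8 without CD51+ replicate 1 and 7 without CD51+ replicate 2. The 4 tested plasma cell markers, Jchain, Sdc1, Xbp1 and Mzb1, are the same genes as in the IRF4-linked list. Other genes that stand in both a marker list and a list above include Cd68, Zbtb46, Tlr7, Spib and Batf3, the last of which was not tested. The marker counts are thus not independent of those lists. Within CD44+CD51-, the summed level of each of these 7 lists was highest in replicate 2, the library in which Irf5 and Irf8 were high. This holds also for the B lineage list, which was lower in CD51+. Other marker lists were examined too. Of the T and NK markers 2 of 2 tested were higher, 1 of them through CD51+ alone. Erythroid markers had 5 of 12 higher and 6 lower, with 0 higher without CD51+ replicate 3. Endothelial markers had 0 of 5 higher and 2 lower. In CD44+CD51- the endothelial sum was highest in replicate 1 (113, 63.3 and 56.3 in replicates 1 to 3), and the erythroid and T and NK sums in replicate 2. The part of these cell types in the changes of the IRF genes and of the lists around them was not tested. Of the sort genes, Itgav, tested through CD51+ alone, was higher there (2.22, limma adjusted p = 0.000389), Cd44 did not differ past the test (-0.14, adjusted p = 0.401), and Ptprc, the pan-leukocyte gene CD45, was higher (0.93, adjusted p = 0.0122).

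The depth behind these values was read from the steps of low RPKM. The library size by which the authors divided came to between 12197833 and 32517059 reads. With GENCODE M21 lengths, Irf1, Irf3, Irf5, Irf8 and Irf9 gave whole reads within 0.05 in all 6 libraries, from 173 reads (Irf5) to 5231 (Irf8). The values of Irf2, Irf4 and Irf7 did not, so their read numbers are approximate, and Irf4, with about 35.4 to 380 reads, had the thinnest support.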

How the data were processed

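The authors deposited a table of RPKM with 1 column per library. Per the submitters' processing notes, the build was GRCm38 and edgeR 3.16.5 was used; the aligner, the read counter, the annotation, and any library-size adjustment are not given in the sources used here. A gene's RPKM depends on the length assumed for it and on the other genes in its library, so very abundant genes in one group lower all others there. Genes with RPKM of at least 1 in at least 3 of 6 libraries (11741) were tested on log2(RPKM + 1) by limma 3.58.1 (R 4.3.3), with prior variances that follow the mean level, two-sided p-values, Benjamini-Hochberg adjustment and a threshold of 0.05. The pseudocount of 1 understates changes of low genes. Shares and ratios were tested by exact permutation in SciPy 1.17.1, with p-values not adjusted for the number of values compared. The fit was also run on simulated data in which, unlike here, few genes were changed and libraries varied independently. Its outcome is not reported here and is not used as support. Estimated library sizes are given with the results.

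The members and gene lists were chosen with earlier results of these data known. From each list the text names up to 5 genes of largest change past the test, the gene nearest to no change, and genes at 0 in a group or in all samples, besides the members, named receptors, STAT genes, sort genes, neighbours, and the 3 genes of most like pattern. A few genes that this rule names are not reported here. Alternatives were the replicate number as a block, other pseudocounts, filters and scalings, no trend, sample weights, and leaving out each library.

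Libraries with the same replicate number deviated together from their group means (correlations over all genes tested of 0.62, 0.29 and 0.52 for numbers 1, 2 and 3, each over 0.1), so the numbers were taken to pair the libraries. Unlike numbers also passed 0.1: CD44+CD51- replicate 3 with CD51+ replicate 2 gave 0.32, and CD44+CD51- replicate 2 with CD51+ replicate 3 gave 0.20. The check therefore does not tell numbers 2 and 3 apart, and the block fits and paired p-values rest on the assumed pairing. The pairing comes from this check and not from the labels.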

Additional observations from a re-analysis of the deposited data

How the results depend on the processing

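Over the alternatives run, Irf1 and Irf8 passed the test in all 15 and Irf5 in 14. The number of members past the test and higher was 3, and 5 with the replicate block, which added Irf2 and Irf7 and changed no other member's call. The number lower was 1, but 0 after median ratio scaling, 2 after quantile normalization and 3 with sample weights. Leaving out 1 library gave 2 to 3 higher members and 0 to 1 lower, 1225 to 2739 higher genes of all tested (2825 with all libraries) and 2336 to 3081 lower (3484). CD51+ replicate 2 is the library without which Irf3 and Irf5 lost their calls and 1225 genes were higher, and 1567 and 1358 were higher without CD51+ replicates 1 and 3. These fits kept the filter at 3 libraries, so genes that passed it through CD51+ alone were untested without any 1 CD51+ library. The part of such genes in the lower counts was not tested. The difference in the share of Irf2 (-1.06 percentage points) ranged from -3.38 to 1.38 and that of Irf7 (-1.38) from -4.46 to 1.56 in these fits, and the log2 change of Irf2 from -0.0093 to 0.69. The causes were not tested.

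With 3 libraries a group, the smallest p of the exact tests is 0.1, and for shares and ratios paired by replicate number it is 0.25. Irf4 had the fewest reads and fell under the level filter when CD44+CD51- replicate 2, CD44+CD51- replicate 3 or CD51+ replicate 3 was left out. The labels give no sequencing batch, and no within-batch value is given. Intervals over libraries do not cover reads assigned to overlapping neighbours of Irf3, Irf5, Irf7 and Irf9.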
